A study of Mus musculus with 64 samples.

Results

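Rel, Rela, Relb and Nfkb2, which encode subunits of the transcription factor NF-kB, and Nfkbia, Nfkbib, Nfkbie, Nfkbiz and Bcl3, which encode IkB proteins that hold or redirect it, were followed across 6 time courses of mouse bone marrow derived macrophages. These 9 genes were taken by symbol from the 18820 genes measured. Each was read from the 1 probe set that carries its symbol alone, as log2 of the deposited intensity, so each difference of 1 is a change of 2-fold. Levels are compared within a gene only, because the brightness of different probe sets cannot be set against each other.

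Macrophages were grown from femurs of male mice aged 7 to 8 weeks, BALB/c or C57BL/6. They were reseeded on day 6 with 10000 U/ml CSF1, the growth factor that keeps macrophages alive, at 200000 cells a well in plates of 24 wells, and were treated on day 7. BALB/c cells received interferon-beta at 10 U/ml, interferon-gamma at 10 U/ml or bacterial lipopolysaccharide (LPS) at 5 ng/ml. For C57BL/6 the only agent was LPS, at doses of 50, 5 and 0.5 ng/ml. Each of these 6 courses was sampled at 1, 2, 4, 8 and 24 h, and each strain had 1 group labelled as untreated at 0 h. From every group 250 ng of RNA from each of 2 wells was put on its own array, giving 64 arrays in 32 groups. No untreated wells were analysed here after 0 h, so a change from 0 h also holds whatever time in culture does. The labels name wells and not animals or preparations, so the p-values measure only the spread between wells, which may be technical. Strain and preparation cannot be told apart.

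NF-kB dimers rest in the cytoplasm, bound by the IkB proteins. LPS, read by the receptor TLR4, and cytokines such as TNF activate a kinase that marks IkB for destruction, and the freed dimers enter the nucleus and switch on inflammatory genes. Several genes of the system, among them those for IkB-alpha and p100, are known to be switched on by NF-kB itself, which closes feedback loops of different speed. Interferons signal mainly through STAT and IRF factors.

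Genes switched on by NF-kB often carry the kappaB consensus near their start, and the promoter sequences of the genes described here are shown for that reason. RefSeq promoter windows on GRCm38.p6, from 250 bases before to 50 bases after the start, were on hand for 7 of the 9 genes and not for Relb or Nfkbiz. The kappaB consensus, searched on both strands, matched in the windows of 5 of those 7, Rel, Nfkb2, Nfkbia, Nfkbie and Bcl3, and in neither Rela nor Nfkbib. It matched in 4.51% of all 32851 windows and for 5.14% of the 27025 genes that have one. The interferon-gamma motif GAS (TTCNNNGAA) matched once, in the first of the 3 Nfkb2 windows at bases -148 to -140, and in 8.30% of all windows. The Nfkbia window lies at chr12:55492598-55492897 on the minus strand, with its match at bases -29 to -20, counted from 1 at the start site. The stretches of 60 bases around the matches of the others lie at chr11:23771027-23771086 (minus strand) for Rel, chr19:46304687-46304746 (plus) for Nfkb2, chr17:45555569-45555628 (plus) for Nfkbie and chr7:19822719-19822778 (minus) for Bcl3. Capitals mark the kappaB matches, which overlap each other in Rel and in the first capital run of Nfkb2. A match describes letters only.
Nfkbia: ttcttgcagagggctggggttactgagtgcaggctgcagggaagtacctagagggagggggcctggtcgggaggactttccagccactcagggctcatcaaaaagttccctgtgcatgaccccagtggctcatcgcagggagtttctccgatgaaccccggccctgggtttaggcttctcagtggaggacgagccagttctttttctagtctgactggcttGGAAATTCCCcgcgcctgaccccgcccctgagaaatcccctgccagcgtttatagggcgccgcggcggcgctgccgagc
Nfkb2: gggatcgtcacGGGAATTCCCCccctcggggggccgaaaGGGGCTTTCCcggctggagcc
Rel: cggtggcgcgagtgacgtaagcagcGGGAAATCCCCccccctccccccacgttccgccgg
Nfkbie: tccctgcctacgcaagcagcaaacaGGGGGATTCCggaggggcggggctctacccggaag
Bcl3: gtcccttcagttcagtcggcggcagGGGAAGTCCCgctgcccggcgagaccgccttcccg

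Some arrays limit what can be read. The C57BL/6 arrays labelled untreated hold transcripts that LPS induces: Nos2, the inducible nitric oxide synthase, read 10.63 and 10.45 there against 3.54 and 3.78 in BALB/c at 0 h, and Cxcl10 read 12.42 and 12.35 against 6.64 and 6.82. Changes of the C57BL/6 courses from 0 h are therefore given beside comparisons that leave 0 h out. Comparisons that use the 1 h wells can still hold such transcripts. At 1 h Nos2 read 10.17 and 5.34 at 50 ng/ml and 8.12 and 3.98 at 0.5 ng/ml. At 5 ng/ml it read 4.41 and 4.56. In 5 groups 1 array stood apart from its replicate by over 1.5 log2 units at 12 to 80 genes, against at most 7 in the other pairs. These genes were counted after the fitted shift of a smaller set of arrays, described below, was taken off. The 5 groups are interferon-gamma at 2 h and 4 h and, in C57BL/6, LPS 50 ng/ml and 0.5 ng/ml at 1 h and LPS 5 ng/ml at 24 h. The last of these has 1 array that reads BALB/c marks, with Hal at 9.21 and H2-Ea at 6.19, where the lowest BALB/c wells read 9.19 and 8.38. In C57BL/6 the first well at 0.5 ng/ml and 24 h was also raised in these marks, to a smaller extent. It read Hal at 6.77 and H2-Ea at 5.13, against 5.17 and 4.64 in its replicate. Leaving out the 5 arrays that stood apart, which do not include that well, changed no count of called genes by over 1.5 times among the 9. Across the replicate differences of probe sets without a gene, the first component held 11.4% of the variance and set 11 arrays apart from the other 53. In 9 groups 1 well of each pair was in the smaller set, and interferon-beta at 4 h lay wholly in it. Neither the labels nor the files name a batch that this matches. Macrophage markers such as Csf1r and Lyz2 were bright on all arrays, with a mean over 8 genes between 11.54 and 12.00. Means of the lists for granulocytes, T cells, B cells, dendritic, erythroid and stromal cells lay between 3.38 and 6.31, against a 40th percentile of all values of 4.49. The brightest gene of these lists was Pdgfrb, with a highest well of 9.20. Their part in the results was not tested. In such whole wells fewer cells of a type and less RNA per cell cannot be told apart.

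LPS at 5 ng/ml raised 8 of the 9 genes in BALB/c cells, and none fell. Across all genes 7.44% rose and 17.2% changed in either direction. A gene was called by limma's F-test over the 5 times, at a Benjamini-Hochberg adjusted p under 0.05 over all genes and a change of at least 1 log2 unit at 1 or more times. The rises differed in size and in speed. Nfkbiz rose most, 71.0-fold at 2 h, Nfkbia was highest at 1 h, the first time sampled, and Nfkb2 at 8 h. Rela stayed under the minimum change, with a largest difference of 0.83 ± 0.08 (SE, n = 2 wells a group) at 4 h and an adjusted p of 1.7e-10.

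**Figure D1:**
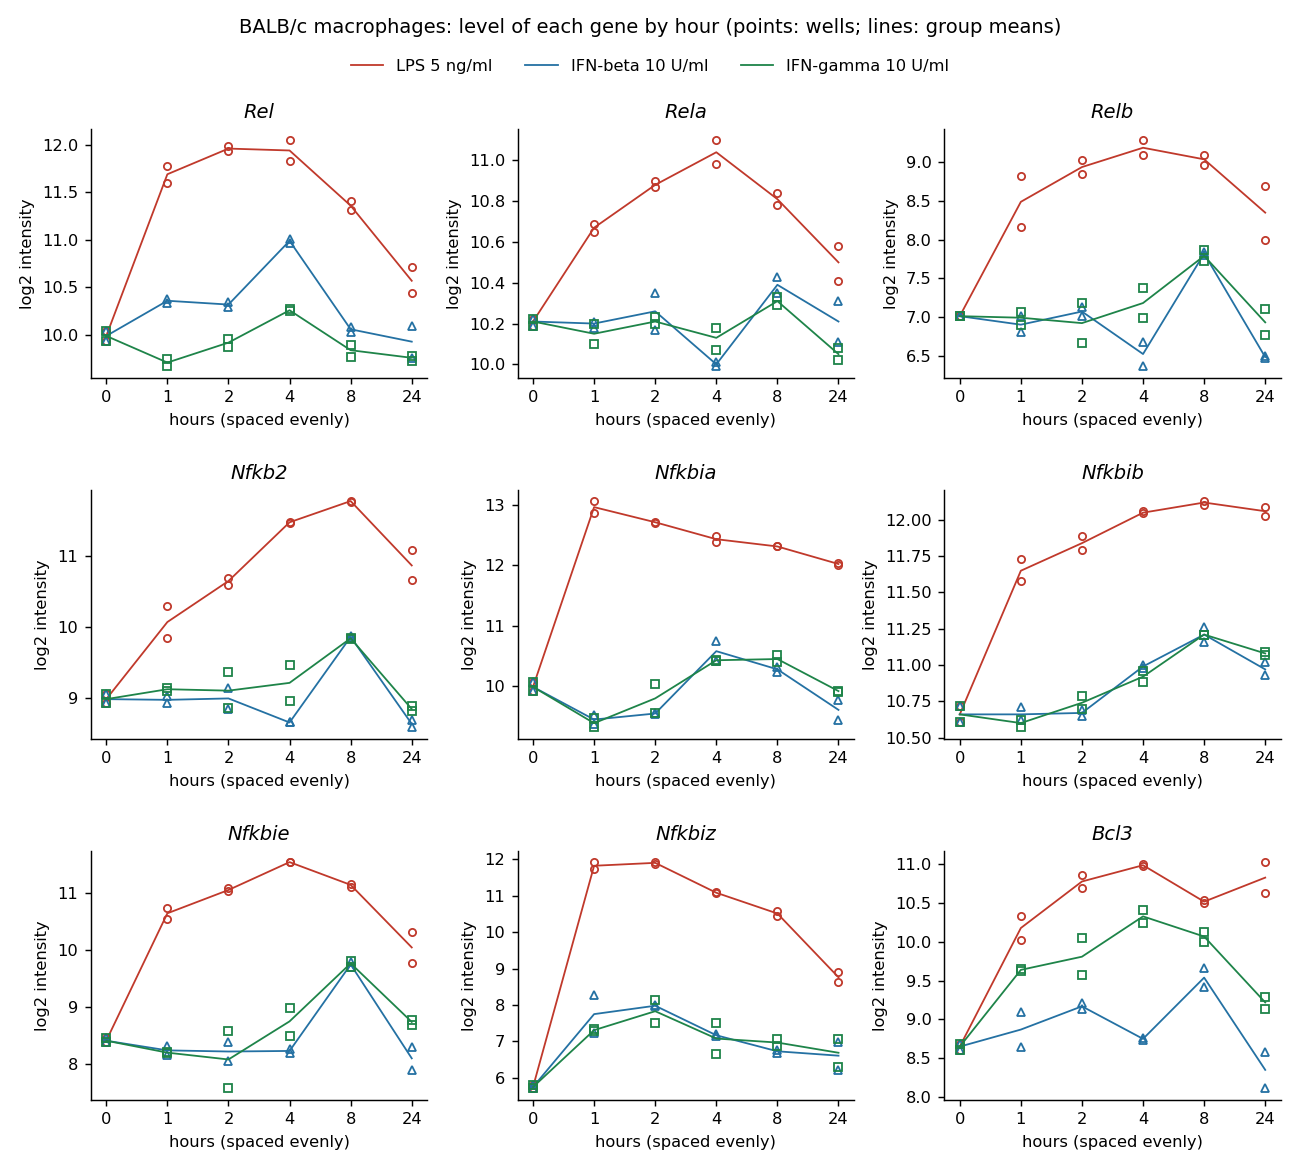
Log2 intensity of the 9 genes in BALB/c macrophages against hours after treatment (spaced evenly) with LPS 5 ng/ml, interferon-beta or interferon-gamma at 10 U/ml; points are wells, lines join group means, all 3 courses start from the same 0 h wells, and the vertical axis differs between panels. Under LPS Nfkbiz climbs from 5.75 to 11.90 at 2 h, while under both interferons Relb, Nfkb2 and Nfkbie stand highest at 8 h.

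Among the subunits, Rel reached its highest mean first, at 2 h. Rel encodes c-Rel, a subunit of lymphoid and myeloid cells that can switch transcription on. It read 10.04 and 9.94 at 0 h, 11.60 and 11.78 at 1 h, 11.99 and 11.93 at 2 h, 11.83 and 12.05 at 4 h, 11.41 and 11.31 at 8 h, and 10.44 and 10.71 at 24 h. All 10 LPS wells lay above both 0 h wells, the 2 h and 4 h wells overlapped, and by 24 h most of the rise was gone. The rise was 1.98 ± 0.13 (SE) at 2 h, 3.93-fold, with an adjusted p of 2e-17 in limma's F-test, and 0.59 was left at 24 h.

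Nfkb2, which encodes p100, the precursor of the p52 subunit and itself an inhibitor, rose more slowly and further. It read 9.05 and 8.92 at 0 h, 10.30 and 9.84 at 1 h, 10.69 and 10.60 at 2 h, 11.47 and 11.49 at 4 h, 11.78 and 11.77 at 8 h, and 11.09 and 10.66 at 24 h. Neighbouring times up to 8 h did not overlap, so its level climbed at each step. The rise at 8 h was 2.79 ± 0.16 (SE), 6.93-fold, with an adjusted p of 1.8e-17 in limma's F-test.

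Relb, the subunit that pairs with p52 in the slower, alternative branch of the pathway, rose by 2.18 ± 0.20 (SE) at 4 h, 4.54-fold. Its wells read 7.01 and 7.01 at 0 h, 9.29 and 9.09 at 4 h, 9.10 and 8.97 at 8 h, and 8.70 and 8.00 at 24 h. The wells at 4 h and 8 h overlapped and those at 24 h were spread by 0.70, so its peak cannot be placed more closely than 4 to 8 h. Rela, which encodes p65, the main activating subunit, read 10.22 and 10.19 at 0 h and 11.10 and 10.98 at 4 h. Its 10 LPS wells all lay above 0 h, yet its whole range over the 32 group means was 1.04, the narrowest of the 9 genes.

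The classical inhibitors rose as well, each at its own pace. Nfkbia encodes IkB-alpha, the quickly made inhibitor that ends an NF-kB pulse. It read 9.92 and 10.07 at 0 h, 12.86 and 13.06 at 1 h, 12.70 and 12.72 at 2 h, 12.49 and 12.38 at 4 h, 12.31 and 12.31 at 8 h, and 12.01 and 12.03 at 24 h. The highest wells were the first ones, each later time lay below the one before it without overlap, and the level at 24 h was still 2.02 above 0 h. At 1 h the rise was 2.97 ± 0.12 (SE), 7.83-fold, with an adjusted p of 2.7e-22 in limma's F-test.

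Nfkbie, which encodes IkB-epsilon, another inhibitor induced by NF-kB but with a delay, rose by 3.14 ± 0.19 (SE) at 4 h, 8.79-fold. It read 8.45 and 8.38 at 0 h, 10.75 and 10.55 at 1 h, 11.55 and 11.55 at 4 h, and 10.33 and 9.78 at 24 h. Nfkbib, which encodes IkB-beta, rose least of the inhibitors and kept its level: 1.45 ± 0.08 (SE) at 8 h, 2.74-fold, and 1.40 at 24 h. Its wells read 10.72 and 10.61 at 0 h, 12.10 and 12.13 at 8 h, and 12.03 and 12.09 at 24 h.

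The atypical IkB proteins act in the nucleus, where they join NF-kB on DNA rather than hold it in the cytoplasm. Nfkbiz encodes IkB-zeta, needed for a second wave of genes such as Il6. It read 5.71 and 5.80 at 0 h, 11.92 and 11.72 at 1 h, 11.92 and 11.88 at 2 h, 11.10 and 11.06 at 4 h, 10.57 and 10.45 at 8 h, and 8.90 and 8.63 at 24 h. The rise at 2 h was 6.15 ± 0.24 (SE), with an adjusted p of 2.2e-23 in limma's F-test, and the wells of 1 h and 2 h overlapped. Between 1 h and 24 h Nfkbiz fell by 3.06 and Rel fell by 1.11, the 2 members called among the 9 in that comparison, where 5.47% of all genes fell and 9.64% were called. Without the first well at 24 h 1 member was called, without the first well at 1 h 4, and with each array centred 1.

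Bcl3, a partner of the p50 and p52 subunits, rose by 2.34 ± 0.18 (SE) at 4 h, 5.07-fold. It read 8.61 and 8.69 at 0 h, 10.98 and 11.00 at 4 h, 10.50 and 10.54 at 8 h, and 11.03 and 10.63 at 24 h. The 24 h wells spanned those of 4 h, and Bcl3 was 2.18 above 0 h at that time, when Rel was at 0.59 and Rela at 0.29.

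Interferons moved fewer of these genes. Interferon-beta raised 2 of the 9, Nfkbiz and Nfkbie, where 4.05% of all genes rose and 7.92% were called either way. Interferon-gamma raised 3, Nfkbiz, Bcl3 and Nfkbie, where 3.10% rose and 5.37% were called. Without the minimum change, limma's F-test at an adjusted p under 0.05 took 9 and 8 of the 9, against 37.4% and 28.9% of all genes, so small movements were common in the set. The interferon and LPS courses share their 0 h wells.

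Nfkbiz was again the member that rose most, in both courses. With interferon-beta it read 7.23 and 8.27 at 1 h, 7.97 and 7.99 at 2 h, 7.14 and 7.20 at 4 h, 6.68 and 6.77 at 8 h, and 6.98 and 6.23 at 24 h. With interferon-gamma it read 7.35 and 7.28 at 1 h, 8.13 and 7.52 at 2 h, 6.65 and 7.51 at 4 h, 7.08 and 6.87 at 8 h, and 6.31 and 7.06 at 24 h. All of these wells lay above both 0 h wells and below every LPS well. At 2 h the rise was 2.23 ± 0.24 (SE), 4.69-fold, for interferon-beta and 2.08 ± 0.24, 4.21-fold, for interferon-gamma, with adjusted p of 2.3e-09 and 1.6e-07 in limma's F-test. The interferon-gamma wells at 2 h differed by 0.61, and without the array that stood apart the value was 1.77.

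Relb, Nfkb2 and Nfkbie stood higher at 8 h, and to nearly the same extent with either interferon. Nfkbie read 9.79 and 9.71 at 8 h with interferon-beta and 9.82 and 9.71 with interferon-gamma, against 8.45 and 8.38 at 0 h. Its rises were 1.34 ± 0.19 and 1.35 ± 0.19 (SE), with adjusted p of 4.8e-09 and 1.4e-08 in limma's F-test. Relb differed from 0 h by 0.81 and 0.78 and Nfkb2 by 0.88 and 0.85, all under the minimum change though past the p threshold at that time. For all 3 genes both wells at 8 h lay above both wells of every other time of their interferon course. Between 4 h and 8 h of interferon-beta Relb rose by 1.30, Nfkb2 by 1.21 and Nfkbie by 1.52, which passed where 3.33% of genes did, but the 4 h wells of that course belong to the smaller array set and the 8 h wells to the larger. With that set as a covariate the steps were 0.87, 0.86 and 1.13, and Nfkbie alone still passed. In interferon-gamma the same step was 0.61 for Relb and 0.63 for Nfkb2, under the minimum change, while Nfkbie rose by 1.02, where 1.18% of genes passed. That call was lost with the array set as a covariate, at 0.82, in the larger set alone, at 0.78, and without the first well at 4 h, at 0.78, or at 8 h, at 0.96.

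Nfkbia moved in both directions without reaching the minimum change. At 1 h it read 9.52 and 9.37 with interferon-beta and 9.47 and 9.32 with interferon-gamma, below both 0 h wells at 9.92 and 10.07. The differences were -0.55 ± 0.12 and -0.60 ± 0.12 (SE), with adjusted p at that time of 0.0046 and 0.0014 in limma. At 4 h it read 10.42 and 10.74 and, with interferon-gamma, 10.41 and 10.44, above both 0 h wells. Rel read 10.97 and 11.01 at 4 h of interferon-beta, above every other interferon or 0 h well, a difference from 0 h of 1.00 ± 0.13 (SE) that lay just under the minimum change. With interferon-gamma Rel differed by 0.28 at that time. Nfkbib stood 0.54 and 0.55 above 0 h at 8 h.

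Bcl3 was the member that separated the interferons past the minimum change. Without that minimum Rel and Nfkbie passed limma's F-test of the comparison too, where 18.3% of all genes did. Rel lay the other way from Bcl3: at 1, 2, 4 and 8 h both interferon-beta wells read above both interferon-gamma wells. With interferon-gamma Bcl3 read 9.65 and 9.63 at 1 h, 10.05 and 9.57 at 2 h, 10.25 and 10.41 at 4 h, 10.13 and 10.00 at 8 h, and 9.14 and 9.29 at 24 h. With interferon-beta it read 8.65 and 9.10 at 1 h, 9.21 and 9.14 at 2 h, 8.74 and 8.76 at 4 h, 9.67 and 9.42 at 8 h, and 8.58 and 8.11 at 24 h. At each of the 5 times both interferon-gamma wells lay above both interferon-beta wells. The rise with interferon-gamma was 1.68 ± 0.18 (SE) at 4 h, 3.21-fold, with an adjusted p of 3.8e-09 in limma's F-test. Interferon-beta minus interferon-gamma was -1.58 at 4 h, and Bcl3 was the 1 member called among the 9, where 1.90% of all genes were lower with interferon-beta and 3.96% were called. Both interferon-beta wells and 1 interferon-gamma well at 4 h were in the smaller array set. With that set as a covariate the difference was -1.39, and without its arrays the 4 h value cannot be given and Bcl3 was not called, although its F-test kept an adjusted p of 4.7e-08.

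Set directly against LPS, all 9 genes were lower with interferon-beta, where 6.19% of all genes were lower and 14.3% were called, and 8 were lower with interferon-gamma, where 6.09% were lower and 13.6% were called. The differences for interferon-beta ran from -1.04 for Rela at 4 h to -4.07 for Nfkbiz at 1 h. The call of Rela, the smallest, was lost with the array set as a covariate, at -0.99. For interferon-gamma Nfkbiz was 4.51 log2 units lower than with LPS at 1 h, and Rela did not pass the minimum change, with a largest difference of -0.91 at 4 h. Bcl3 with interferon-gamma differed from LPS by -0.54 at 1 h, -0.97 at 2 h, -0.66 at 4 h, -0.46 at 8 h and -1.61 at 24 h, past the minimum change at 24 h alone. The comparison shares no wells between its arms.

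In the smaller array set Relb, Nfkb2, Nfkbie, Nfkbiz and Bcl3 read lower than in their replicates. The median difference over the 9 split groups was -0.42 for Nfkb2, -0.41 for Relb, -0.38 for Nfkbie, -0.34 for Bcl3 and -0.25 for Nfkbiz. Nfkb2, Nfkbie and Bcl3 were lower in 9 of 9 pairs, and Relb and Nfkbiz in 8 of 9. Rel, Rela, Nfkbia and Nfkbib had medians between -0.04 and 0.09. These shifts lie between single wells, whereas the SE of the fit is for differences of group means, so their sizes cannot be compared directly. They enter in full for interferon-beta at 4 h, which lies wholly in the smaller set. In part they enter the mean of each of the 9 split groups.

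**Figure D2:**
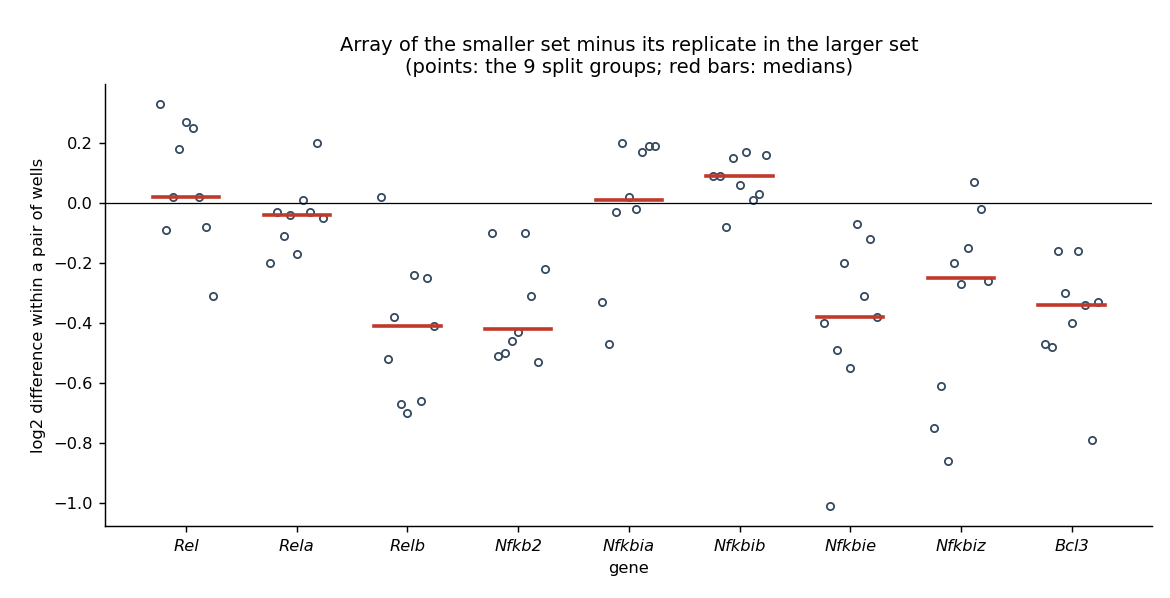
Log2 difference between the well in the smaller array set and its replicate in the larger set, for each of the 9 genes (horizontal axis) in the 9 groups that are split; points are groups and red bars medians. Relb, Nfkb2, Nfkbie, Nfkbiz and Bcl3 sit mostly below 0 with medians from -0.42 to -0.25, while Rel, Rela, Nfkbia and Nfkbib straddle 0.

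The C57BL/6 courses ask how the response varies with the dose of LPS. Nfkbiz differed most between doses, Nfkbia mainly at 1 h, and no member was called between 50 and 5 ng/ml. From 0 h, 8 of the 9 genes rose at 50 ng/ml and at 5 ng/ml, and 7 at 0.5 ng/ml. All genes rose at 6.26%, 5.88% and 4.02%, and 15.0%, 14.3% and 9.11% were called either way. Rela missed the minimum change at each dose and Nfkbib at 0.5 ng/ml. The calls of Nfkbib lay near that minimum, with rises of 1.01 at 24 h of 50 ng/ml and 1.11 at 8 h of 5 ng/ml. Both were lost with quantile normalization. At 24 h its mean was 12.00 at 50 ng/ml and 11.96 at 0.5 ng/ml. With each array centred 8 members were called at 0.5 ng/ml, so these counts do not show a dose difference. From 1 h on, which leaves out the 0 h arrays, 6 members were called at each dose, where 14.6%, 14.9% and 10.4% of all genes were, and Nfkbia was called at none of the 3. The 3 dose courses share those 0 h wells, and the doses are also compared directly, without them.

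Rel rose to similar heights at the higher doses. It read 9.96 and 10.09 at 0 h and, at 4 h, 11.76 and 12.01 at 50 ng/ml, 11.81 and 11.79 at 5 ng/ml, and 11.26 and 11.32 at 0.5 ng/ml. The wells of 50 and 5 ng/ml overlapped and those of 0.5 ng/ml lay below both. Nfkb2 read 9.50 and 9.46 at 0 h and, at 8 h, 11.09 and 11.13, 11.34 and 11.39, and 10.98 and 11.00, the highest at 5 ng/ml, though the doses of 50 and 5 ng/ml did not differ past the test for it. Bcl3 read 9.39 and 9.36 at 0 h and, at 8 h, 11.14 and 11.09, 10.89 and 10.90, and 10.91 and 10.79. The rises at 50 ng/ml were 1.86 ± 0.13 (SE) for Rel at 4 h, 1.63 ± 0.16 for Nfkb2 at 8 h and 1.74 ± 0.18 for Bcl3 at 8 h.

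Nfkbiz had the largest difference between doses among the 9. At 1 h it read 10.95 and 11.18 at 50 ng/ml, 10.90 and 10.71 at 5 ng/ml, and 9.26 and 9.24 at 0.5 ng/ml. At 2 h it read 11.72 and 11.87, 11.45 and 11.52, and 10.83 and 10.74, and at 24 h 9.32 and 9.47, 9.08 and 9.38, and 9.17 and 8.91. The lowest dose stood clear of the others at 1, 2, 4 and 8 h, and at 24 h it overlapped 5 ng/ml. Between 50 and 0.5 ng/ml the difference was 1.82 ± 0.24 (SE) at 1 h, 3.52-fold, with an adjusted p of 3.6e-08 in limma's F-test, and 1.01 at 2 h. The second well at 0.5 ng/ml and 1 h is in the smaller array set, and with that set as a covariate the 1 h difference was 1.65. Nfkbiz was the 1 member called there, where 2.01% of all genes were higher and 3.72% were called. It was also the 1 called between 5 and 0.5 ng/ml, by 1.55 at 1 h, where 1.16% were higher and 2.16% were called.

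Nfkbia differed between doses mainly at 1 h. It read 12.68 and 12.79, 12.76 and 12.61, and 11.64 and 11.83 at 1 h from the highest dose to the lowest, and 12.85 and 12.92, 12.79 and 12.96, and 12.67 and 12.63 at 2 h. The difference between 50 and 0.5 ng/ml was 1.00 ± 0.12 (SE) at 1 h, just under the minimum change, with an adjusted p of 1.2e-07, and 0.24 at 2 h. It was called with each array centred, at 1.07, in the larger array set alone, at 1.09, and without the first well at 50 ng/ml and 1 h or the second at 0.5 ng/ml and 1 h, which raises the count of called members to 2. Between 5 and 0.5 ng/ml the count rose to 2 in the same way without the second well of either dose at 1 h. Rel differed by 0.60 at 4 h and 0.51 at 8 h.

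For Relb, Nfkbie and Bcl3 the differences between the highest and lowest dose at 4 h were smaller than their SE. At 4 h Nfkbie read 10.99 and 10.92 at 50 ng/ml and 10.91 and 10.90 at 0.5 ng/ml, and Bcl3 read 10.89 and 10.73 against 10.79 and 10.86. The difference of Relb at that time was 0.05 ± 0.20 (SE), that of Nfkbie 0.06 ± 0.19 and that of Bcl3 -0.01 ± 0.18. At 1 h these genes differed by 0.62, 0.51 and 0.53. None passed the test at that time, with adjusted p of 0.062, 0.099 and 0.072 in limma. The second 0.5 ng/ml well at 1 h is in the smaller array set, where these genes read lower. At 2 h Bcl3 went the other way, at 9.73 and 9.66 with 50 ng/ml against 10.20 and 10.15 with 0.5 ng/ml. Without the minimum change Bcl3 passed limma's F-test of this comparison. Between 50 and 5 ng/ml no member was called by limma, 0 had an unadjusted p under 0.05 in its F-test, and 0 were called under each of the alternative settings. Of all genes 0.228% were called there, 43 genes, and 11.1% had such a p. That count was 147 without the second well at 50 ng/ml and 1 h and 121 without the first at 5 ng/ml and 24 h, each of which leaves its group with the array that stood apart. The differences of the 9 genes between these doses lay between -0.33, for Relb at 8 h, and 0.31, for Nfkbiz at 2 h.

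**Figure D3:**
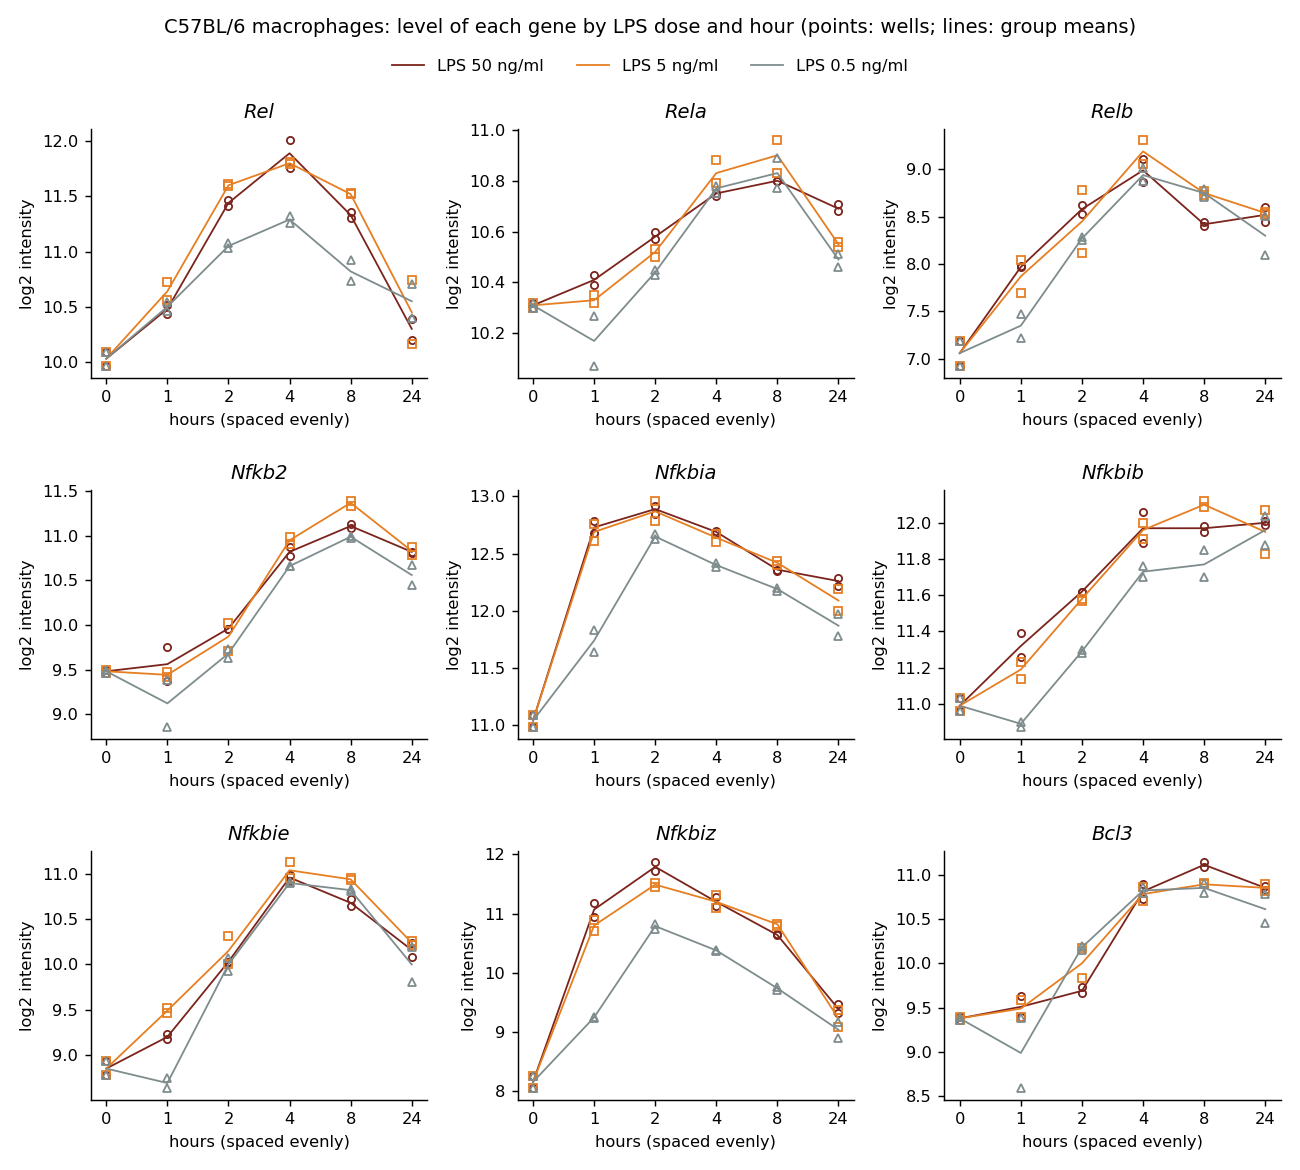
Log2 intensity of the 9 genes in C57BL/6 macrophages against hours (spaced evenly) at 3 LPS doses; points are wells, lines join group means, the courses share the 0 h wells, which hold LPS-induced transcripts, and the vertical axis differs between panels. Nfkbiz at 0.5 ng/ml runs below the higher doses up to 8 h, and at 4 h the wells of Nfkbie lie between 10.90 and 11.13 at all doses.

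In C57BL/6 4 of the 9 genes had their highest group mean at the time seen in BALB/c at all 3 doses: Nfkbiz at 2 h, Relb and Nfkbie at 4 h and Nfkb2 at 8 h. At all 3 doses the highest mean of Nfkbia was at 2 h, where BALB/c had it at 1 h. That of Rel was at 4 h at all 3, where BALB/c had it at 2 h with the 4 h wells overlapping. Those of Rela and Bcl3 were at 8 h at all 3, where BALB/c had them at 4 h. The 8 h and 4 h wells overlapped for Rela at 5 and 0.5 ng/ml and for Bcl3 at 0.5 ng/ml. In BALB/c the 4 h wells of Bcl3 overlapped those at 24 h. Nfkbib, highest at 8 h in BALB/c, was highest at 8 h at 5 ng/ml and at 24 h at 50 and 0.5 ng/ml. Between 1 h and 24 h Nfkb2 rose by 1.25, 1.39 and 1.44 and Bcl3 by 1.34, 1.37 and 1.63, from the highest dose to the lowest. Over the same interval Nfkbiz fell by 1.67 at 50 ng/ml and fell by 1.58 at 5 ng/ml, and at 0.5 ng/ml it differed by -0.21 and was not called. From its highest mean, at 2 h, to 24 h Nfkbiz changed by -2.40, -2.26 and -1.75, from the highest dose to the lowest. At 0.5 ng/ml Nfkbib and Nfkbie rose too between 1 h and 24 h, by 1.07 and 1.30. The first 24 h well at 0.5 ng/ml is the array that read Hal at 6.77. Of the 9 genes 3, 3 and 4 were called at 50, 5 and 0.5 ng/ml, where 8.86%, 9.08% and 7.90% of all genes were called and, at the lowest dose, 3.39% rose. In the interferon courses that interval gave 1 call, Nfkbiz in interferon-beta at -1.14 where 1.13% of genes fell and 1.49% were called, and 0 in interferon-gamma, where 2.75% were, 5 members had an unadjusted p under 0.05 in limma, as 25.8% of all genes did, and 3 an adjusted one, as 15.4% did. That interferon-beta call was lost with the array set as a covariate, in the larger set alone, with those 2 groups fitted alone, and without the second well at 1 h or at 24 h.

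At the same dose of 5 ng/ml the members called between the strains differed most at 1 h. At 1 h Rel read 10.72 and 10.56 in C57BL/6 against 11.60 and 11.78 in BALB/c, Nfkbie 9.46 and 9.52 against 10.75 and 10.55, and Nfkbiz 10.90 and 10.71 against 11.92 and 11.72. The wells of the strains did not overlap for these genes at 1 h. The differences were -1.05 ± 0.13 for Rel, -1.16 ± 0.19 for Nfkbie and -1.02 ± 0.24 for Nfkbiz (SE), with adjusted p of 3.8e-07, 1.2e-06 and 0.0039 in limma's F-test. These 3 were lower in C57BL/6 and none was higher, where 3.52% of all genes were lower and 5.53% were called. The calls of Rel and Nfkbiz lie at the minimum change: with each array centred they were -0.94 and -0.91, with quantile normalisation -0.98 and -0.95, and both were lost, as they were without the second C57BL/6 well at 1 h. Nfkbie kept its call in each of these.

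**Figure D4:**
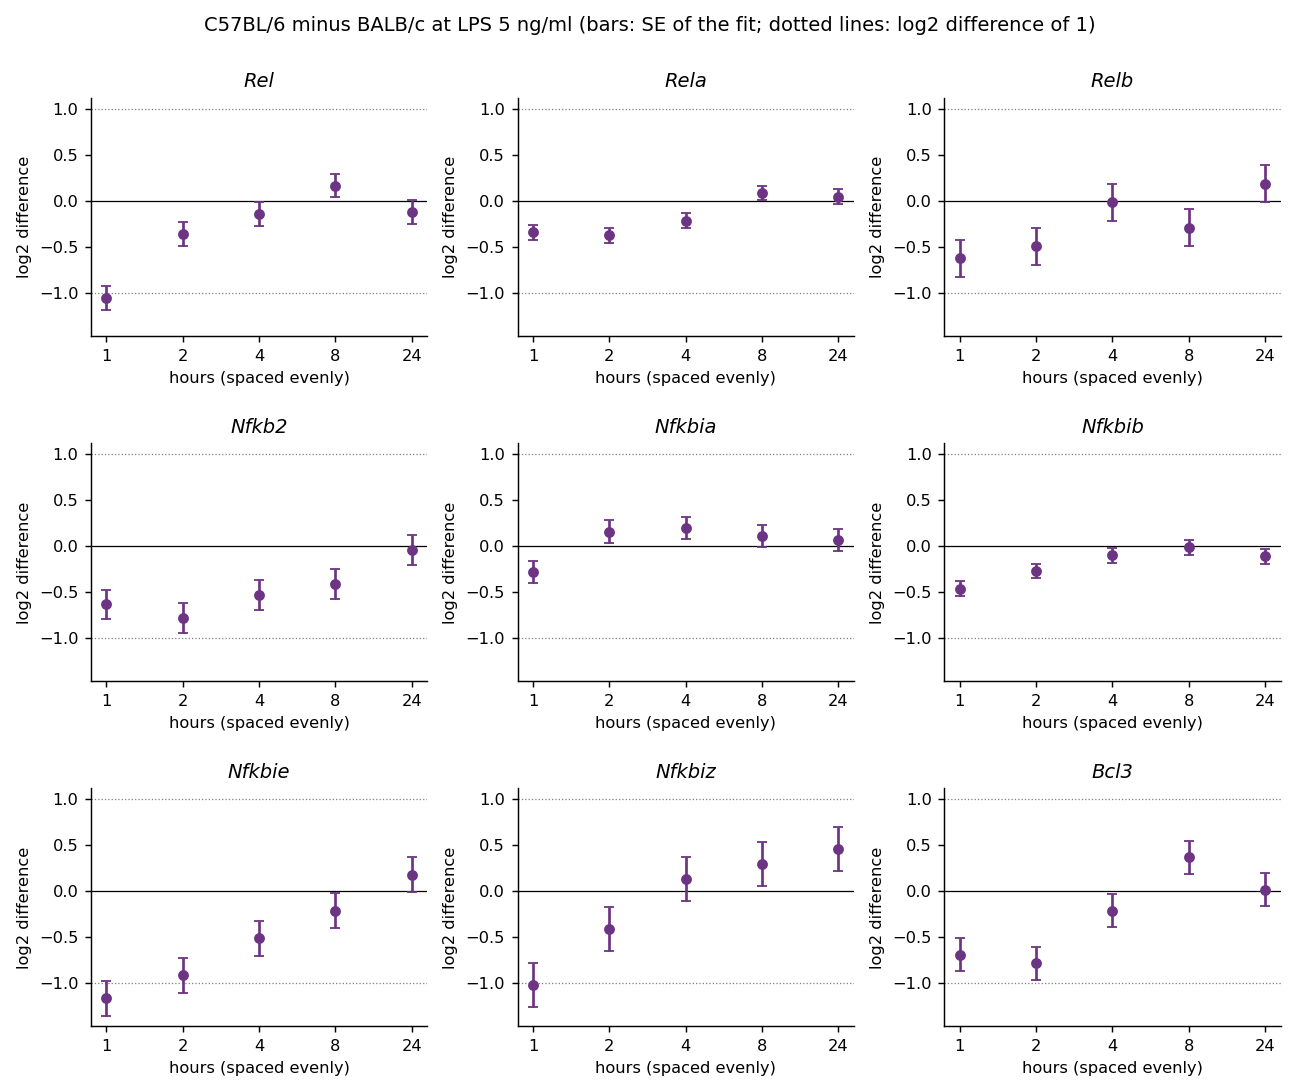
Log2 difference between C57BL/6 and BALB/c macrophages at LPS 5 ng/ml by hours after treatment (spaced evenly) for the 9 genes; points are differences of group means, bars the SE of the fit, and dotted lines mark the minimum change of 1. Rel, Nfkbie and Nfkbiz start near -1 at 1 h, and by 24 h all 9 genes lie between -0.12 and 0.46.

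The remaining members were lower too at 1 h, by values from -0.28 for Nfkbia to -0.69 for Bcl3, none past the minimum change. At 2 h Nfkb2 and Bcl3 both differed by -0.78. By 8 h the differences lay between -0.41 for Nfkb2 and 0.37 for Bcl3. In BALB/c 1 of the 2 wells at 1 h and at 24 h, and in C57BL/6 1 of the 2 at 2 h, are in the smaller array set, where Relb, Nfkb2, Nfkbie, Nfkbiz and Bcl3 read lower. With that set as a covariate the values at 1 h were -1.02 for Rel, -1.35 for Nfkbie and -1.19 for Nfkbiz, and all 3 stayed called. In the larger set alone Rel was at -0.96 and lost its call. The change of the strain difference between 1 h and 24 h was 1.34 ± 0.26 (SE) for Nfkbie and 1.48 ± 0.33 for Nfkbiz, with adjusted p of 0.00093 and 0.0046 in limma. These 2 passed, where 1.87% of genes did, and Rel at 0.93 lay under the minimum change. The C57BL/6 arm at 24 h holds the array that reads BALB/c marks. Without that array the values were 1.36 ± 0.30 and 1.33 ± 0.37 (SE), with adjusted p of 0.0049 and 0.038 in limma, and both still passed. Fitted on these 4 groups alone, Nfkbie did not pass, with an adjusted p of 0.082 in limma.

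At 0 h the strains differed in Nfkbiz and Nfkbia. Nfkbiz read 8.26 and 8.05 in C57BL/6 against 5.71 and 5.80 in BALB/c, a difference of 2.40 ± 0.24 (SE) with an adjusted p of 4.5e-10 in limma. Nfkbia read 11.09 and 10.98 against 9.92 and 10.07, a difference of 1.04 ± 0.12 with an adjusted p of 9.5e-09. These 2 were called, where 1.26% of all genes were higher in C57BL/6 and 2.36% were called, and the call of Nfkbia was lost without the first well of either strain. Bcl3 differed by 0.73, Nfkb2 by 0.50 and Rel by 0.04. Of 8 granulocyte markers 6 were higher in both of these C57BL/6 wells than in both BALB/c wells and 1, Cebpe, was lower, and the mean of the list was 5.05 and 5.31 against 4.57 and 4.66. Ngp differed most among them, at 6.04 and 6.31 against 4.14 and 4.73. Of 3 B cell markers Cd79b was higher, at 6.53 and 6.89 against 5.21 and 5.42, while Cd79a and Ms4a1 overlapped. The part of these cell types in the difference was not tested. The C57BL/6 arrays at 0 h are those that hold LPS-induced transcripts, so rises of Nfkbiz and Nfkbia from 0 h in that strain start from a higher level: at 2 h of 5 ng/ml Nfkbiz was 3.33 above 0 h in C57BL/6 and 6.15 in BALB/c, while the strains differed by -0.41 at that time.

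Across all 32 groups Nfkbia and Nfkbiz, alone among the 9 genes, kept LPS wells apart from all others. The lowest LPS well of Nfkbia read 11.64 and the highest well without LPS, a C57BL/6 well at 0 h, 11.09. For Nfkbiz these were 8.63 and 8.27, the latter from interferon-beta at 1 h. All 20 LPS groups lay above every well without LPS for these 2 genes, against 12 for Rel, 13 for Bcl3, 14 for Nfkb2, 15 for Rela and Nfkbie, and 18 for Relb and Nfkbib. These counts stand without a share over all genes, so they do not set the 9 apart from other genes. The order of the levels was fine grained: of the 31 pairs of neighbours in the order of group means, the wells overlapped in 16 pairs for Nfkbiz and in 19 to 26 for the other genes. Group means spanned 6.15 log2 units for Nfkbiz, 3.57 for Nfkbia, 3.47 for Nfkbie and 3.15 for Nfkb2. They spanned 2.77 for Bcl3, 2.72 for Relb, 2.25 for Rel and 1.52 for Nfkbib. The highest mean was a BALB/c LPS group for every member but Bcl3, highest at 8 h of 50 ng/ml in C57BL/6. The median SD of a pair of wells was between 0.03 and 0.12.

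As a description over these 32 group means, which share dose, time and strain, the members fell into patterns that were alike to different degrees. Pearson's r was 0.97 between Relb and Nfkbie, 0.94 between Nfkb2 and Nfkbib and between Rela and Nfkbie, and 0.92 between Nfkbia and Nfkbiz. It was lowest, at 0.57, between Rel and Bcl3. Among all genes, those most like Nfkbia were Tnfaip3 at 0.98, which encodes the ubiquitin-editing inhibitor A20, the cytokine gene Tnf at 0.98 and the chemokine gene Cxcl2 at 0.97. Those most like Nfkbiz were Tnfaip3 at 0.95 and Junb and Cxcl1 at 0.94. Nfkbib was most like Traf1, Birc3 and Cxcl16, all at 0.97, and Nfkb2 most like Mllt6 at 0.95. Relb and Nfkbie both had Tnfaip2 first at 0.95, Rela had Ptpn23 at 0.95, Bcl3 had Cdc42ep2 at 0.95, and Rel had Erbin at 0.93.

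The rest of the pathway gives the setting. Of a list of 38 signalling genes (kinases, adaptors and ubiquitin enzymes) 31 were measured. With LPS in BALB/c 17 of them rose and none fell, where 7.44% of all genes rose. The median largest change of the 31 was 1.35 against -0.19 over all genes. Those that changed most were Traf1, an adaptor of TNF receptors, up by 4.10 at 8 h, Tnfaip3, up by 3.79 at 1 h, Malt1, a protease of the pathway, up by 2.76 at 4 h, and Birc3, a ubiquitin ligase, up by 2.56 at 8 h. In C57BL/6 17, 16 and 12 rose at 50, 5 and 0.5 ng/ml, and none fell, where 6.26%, 5.88% and 4.02% of all genes rose. With interferon-beta 7 rose and 1 fell, led by Map3k8, the kinase TPL2, at 1.73. With interferon-gamma 5 rose, led by the same gene at 1.35. Of all genes 4.05% rose with interferon-beta and 3.10% with interferon-gamma. Malt1 was 2.03 log2 units lower at 4 h with interferon-beta than with interferon-gamma, where both interferon-beta wells are in the smaller array set. Between 50 and 0.5 ng/ml Tnfaip3 was 1.35 higher at 1 h, and between the strains Malt1 was 1.41 lower in C57BL/6 at 1 h.

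Of a list of 7 further genes, not all of them IkB-like, 5 were measured. Nfkbid, which encodes the nuclear protein IkB-NS, rose by 3.09 at 1 h of LPS in BALB/c and by 1.99 at 2 h of 5 ng/ml in C57BL/6. With interferon-gamma Nfkbid fell by 1.16 at 2 h, and with interferon-beta it rose by 1.10 at 4 h. Between 1 h and 24 h of LPS in BALB/c it fell by 2.61, where Nfkbiz fell by 3.06. Pdlim2, which encodes a ubiquitin ligase known to act on p65, fell by 1.12 at 8 h of LPS in BALB/c.

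Of 24 inflammatory targets 23 were measured, and all 23 rose with LPS in BALB/c, where 7.44% of all genes rose. The median of their largest change was 4.10, against -0.19 over all genes. Nos2 rose by 8.65 at 24 h, Il1b by 8.53 at 8 h and Il6 by 7.91 at 8 h. With interferon-beta 11 rose and with interferon-gamma 13, where 4.05% and 3.10% of all genes rose. The medians were 1.03 and 1.27, against -0.19 over all genes in each. Between 50 and 0.5 ng/ml 13 were higher, led by Il6 at 3.90 at 4 h, where 2.01% of all genes were higher. The median over the list was 1.42, against -0.17 over all genes. In C57BL/6 from 0 h 20 rose and 2 fell at 50 and at 5 ng/ml, and 13 rose and 7 fell at 0.5 ng/ml. Of all genes 6.26%, 5.88% and 4.02% rose, from the highest dose to the lowest. Nos2 fell by 6.10 at 2 h of 50 ng/ml, from the level on the arrays labelled untreated. At 0 h 14 of the 23 were higher in C57BL/6 than in BALB/c and none was lower, where 1.26% of all genes were higher.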

How the data were processed

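The authors deposited 1 linear intensity for each of 35556 probe sets on 64 arrays. The submitters' processing notes name Affymetrix Expression Console 1.1, and the background correction and normalization are not given in the sources used here. Array medians of the deposited intensity lay between 25.6 and 29.0, and replicates correlated at 0.992 to 0.998 on the log2 scale. Of the probe sets 21218 carry 1 gene symbol, 1881 several and 12457 none. For each of 18820 genes the brightest probe set with 1 symbol was kept, with no further normalization and no filter on dim genes.

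All 64 arrays entered 1 limma fit of 32 group means (R 4.3.3, limma 3.58.1, 32 residual degrees of freedom). A comparison over 5 times used the moderated F-test with Benjamini-Hochberg adjustment over all genes. Calls needed an adjusted p under 0.05 together with a log2 difference of at least 1 at 1 or more times, and this was tested on simulated data. Named list genes are the called ones with the largest change, up to 4 a list and comparison. Over 496 pairs of groups, deviations of same-numbered wells correlated between -0.472 and 0.55 (median 0.00456), so numbers were not taken as pairs.

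The members and gene lists were chosen with earlier results of these data known. Alternatives were centring, quantile normalization, the array set as a covariate or left out, arrays left out, a filter on dim genes, the mean of probe sets, the replicate block, trend and robust moderation, fits of the compared arrays alone, no minimum change, and changes from 1 h.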

Additional observations from a re-analysis of the deposited data

Results flagged for a closer look

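Whether an effect differed between groups was tested in limma for 3 changes over time, with Benjamini-Hochberg adjustment over all genes, and 4 differences among the 9 genes passed. Between 1 h and 24 h of LPS 5 ng/ml, C57BL/6 minus BALB/c changed by 1.34 ± 0.26 (SE) for Nfkbie and by 1.48 ± 0.33 for Nfkbiz (adjusted p of 0.00093 and 0.0046), where 1.87% of genes passed. Without the C57BL/6 24 h array that reads BALB/c marks they were 1.36 and 1.33 and still passed, and fitted on the arrays compared alone Nfkbie did not pass, with an adjusted p of 0.082. Nfkbie went up by 0.75 in C57BL/6 and down in BALB/c, at -0.59, over that interval, and Nfkbiz moved by -1.58 and -3.06. In the next comparison the 0.5 ng/ml arm at 24 h holds the array that read Hal at 6.77. Between 1 h and 24 h LPS 50 minus 0.5 ng/ml changed by -1.46 ± 0.33 for Nfkbiz (adjusted p of 0.014), where 0.526% of genes passed. That call was lost on the arrays compared alone (adjusted p of 0.077), without the second well at 50 ng/ml and 1 h (0.097) and without the first 24 h well at 50 ng/ml (0.083) or 0.5 ng/ml (0.085). Between 4 h and 8 h interferon-beta minus interferon-gamma changed by 1.06 ± 0.25 for Bcl3 (adjusted p of 0.007), where 1.5% of genes passed. Both interferon-beta wells at 4 h are in the smaller array set, where Bcl3 read lower. With that set as a covariate the difference was 0.87, under the minimum change, and the call was also lost without the second interferon-gamma well at 4 h (0.97) or 8 h (0.99), the first interferon-beta well at 8 h (0.93) or the arrays that stood apart (0.97).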

How the results depend on the processing

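Of 74 called differences of the 9 genes, recomputed under 1761 settings in all, 1735 kept their call, 26 lost it and 0 changed direction. A call counted as kept if the gene was called at any time of the comparison. Dropping the minimum change, which is among these settings, cannot lose a call. The mean of probe sets leaves the values of the 9 genes unchanged, since each has 1 probe set. Of 466 recomputed counts of called members, 431 stayed within 1.5 times. With no minimum change the counts of members, each with the share of all genes that passed, were 9 (37.4%) for the interferon-beta course, 8 (28.9%) for interferon-gamma, 3 (18.3%) for interferon-beta minus interferon-gamma, 6 (25.3%) for LPS 50 minus 0.5 ng/ml, 5 (17.6%) for LPS 5 minus 0.5 ng/ml, 8 (31.2%) between strains and 5 (9.57%) between strains at 0 h. For 24 h minus 1 h they were then 3 (9.34%) with interferon-beta, 3 (15.4%) with interferon-gamma, 7 (30.4%) with LPS in BALB/c, and 8 at both 50 ng/ml (29.1%) and 5 ng/ml (30.4%) in C57BL/6. Taken from 1 h the BALB/c LPS course had 3, with 2824 of 18820 genes called. In the larger array set alone interferon-beta minus interferon-gamma had 0, LPS 50 minus 0.5 and 5 minus 0.5 ng/ml had 2 each, and interferon-beta 24 h minus 1 h had 0, as it had with the array set as a covariate and with only the compared arrays. With each array centred both dose comparisons with 0.5 ng/ml had 2, the strains 1 and BALB/c LPS 24 h minus 1 h 1, and with quantile normalization the strains had 1.

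Leaving out 1 well gave 1 to 2 for LPS 50 minus 0.5 ng/ml, 1 to 2 for LPS 5 minus 0.5 ng/ml, 1 to 3 between strains, 1 to 2 between strains at 0 h, 0 to 1 for interferon-beta 24 h minus 1 h and 1 to 4 for BALB/c LPS 24 h minus 1 h, and moved no other count by over 1.5 times. With the replicate number as a block the strains still had 3 called members and BALB/c LPS 8, and no count changed. Over all genes, dropping the minimum change moved the interferon-beta course from 1490 to 7037 called genes, interferon-gamma from 1010 to 5446, BALB/c LPS from 3231 to 8979 and LPS 50 minus 5 ng/ml from 43 to 181. The larger array set alone gave 977 for interferon-beta and 72 for LPS 50 minus 5 ng/ml, and only the compared arrays gave 13 for the latter, which had 147 without the second well at 50 ng/ml and 1 h and 121 without the first at 5 ng/ml and 24 h. Alternatives for the changes over time between 2 groups or within a course were chosen after seeing the data. The cause of these shifts was not tested, except that a rule without a minimum change admits more genes. With 2 wells a group, the number of arrays limits the precision.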
